A study of Mus musculus with 12 samples.

Results

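Glycolysis and the hypoxia response were followed through 36 genes in embryonic mouse cortex with and without AP2gamma, a transcription factor encoded by Tfap2c. The genes were 17 glycolytic enzymes, 4 glucose and lactate transporters, 2 pyruvate dehydrogenase kinases, 3 genes of oxygen sensing and 10 further targets of the hypoxia response. Every probe set annotated to 1 of these genes alone was taken, with Pkm also under its older symbol Pkm2, which gave 73 of the 45101 probe sets of the series. They covered 33 of the 36 genes. Gpi1 and Eno1 were named by none of the probe sets used here, and Bnip3l was named only together with a pseudogene.

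Caudal or rostral pieces of cortex were taken at embryonic day 14 from AP2gamma knockout mice (KO) and wild-type mice (WT). Each of the 4 groups held 3 arrays. They were caudal KO (animals 1, 2 and 13), caudal WT (animals 4, 6 and 14), rostral KO (animals 7, 8 and 15) and rostral WT (animals 10, 12 and 16). Each array carried its own animal number and 400 ng of amplified total RNA, and the whole pieces were measured without sorting. The labels used here do not say how the gene was deleted, in which cells, or on which strain, so the KO groups are described only by that name.

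Glycolysis splits glucose into pyruvate through a chain of cytosolic enzymes, and lactate dehydrogenase can turn the pyruvate into lactate. When oxygen is scarce, prolyl hydroxylases no longer mark the factor HIF-1alpha for destruction, and HIF-1alpha then binds short DNA elements with the core ACGTG or GCGTG and raises many of the enzymes, glucose transporters and blood vessel factors. In the developing cortex, glycolysis is known to run high in dividing progenitors before vessels have grown in and to give way to oxidative metabolism as neurons form.

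Values are the log2 signals deposited by the authors. A probe set was tested when it exceeded 5.21, the median of the table, on at least 3 of the 12 arrays, and the tested probe set of highest mean stood for its gene. By this rule 29 of the 33 genes and 61 of the 73 probe sets were tested, among them 15 enzymes with 32 of their 34 probe sets. The hypoxia-induced genes Adm (adrenomedullin), Car9 (carbonic anhydrase IX), P4ha2 (a collagen prolyl hydroxylase subunit) and Slc16a3 (a lactate exporter) had no probe set above this limit on 3 arrays and were not tested. Car9 lay between 1.40 and 4.51 on the 12 arrays, and Slc16a3 lay between 0.84 and 4.63. P4ha2 lay between 2.42 and 5.19. The brighter Adm probe set lay between 2.14 and 5.34. Differences are log2 differences with standard errors (SE) from limma, with p-values adjusted over all 11785 tested genes and a threshold of 0.05.

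The arrays had like distributions, with medians of 5.21 or 5.22. Tfap2c, on its brightest probe set, read 7.44 to 7.86 in caudal KO against 8.64 to 9.19 in caudal WT, and 8.09 to 8.63 in rostral KO against 8.54 to 9.06 in rostral WT. The rostral groups overlapped there, through KO 8 and WT 16. On the other Tfap2c probe sets they did not overlap, with 7.40 to 7.79 in KO against 8.07 to 8.44 in WT, and 7.13 to 7.50 against 7.65 to 8.20. The mean of 6 tested markers of the dorsal telencephalon was 9.71 to 10.28 per array. Marker lists of other tissues set some arrays apart. The mean of 4 tested meningeal genes, of 6 listed, was 8.18 in rostral KO 15 against 4.96 to 5.97 on the other 11 arrays, and Col1a1 and Lum were not tested. The mean of 3 tested choroid plexus genes, of 5 listed, was 7.35 in caudal WT 6 against 2.44 to 4.38 on the other 5 caudal arrays and 5.21 to 6.37 on the rostral arrays, and Ttr and Kcne2 were not tested. Xist, a transcript of female cells, read 11.32 in caudal WT 6 and 11.89 in rostral WT 12, against 2.39 to 5.48 elsewhere. In whole pieces of tissue, fewer cells of a type and less RNA per cell cannot be told apart.

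Stretches of 250 bases before the gene starts are shown for the genes that separated the groups most clearly, since the hypoxia response element lies in many glycolytic promoters. They come from RefSeq (GRCm38.p6), are written 5′ to 3′ in the direction of transcription, and carry in capitals each match to the core ACGTG or GCGTG on either strand and each match to GCCNNNGGC, a consensus of the AP2 family. The AP2 consensus was added after the expression values had been seen.
Ldha, chr7:46845554-46845803, plus strand: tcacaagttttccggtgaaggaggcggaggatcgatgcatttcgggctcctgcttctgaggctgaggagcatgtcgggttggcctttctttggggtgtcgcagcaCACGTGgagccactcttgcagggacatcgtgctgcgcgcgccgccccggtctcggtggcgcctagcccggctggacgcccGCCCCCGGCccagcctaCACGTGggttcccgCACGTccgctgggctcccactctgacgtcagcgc
Eno2, chr6:124769674-124769923, minus strand: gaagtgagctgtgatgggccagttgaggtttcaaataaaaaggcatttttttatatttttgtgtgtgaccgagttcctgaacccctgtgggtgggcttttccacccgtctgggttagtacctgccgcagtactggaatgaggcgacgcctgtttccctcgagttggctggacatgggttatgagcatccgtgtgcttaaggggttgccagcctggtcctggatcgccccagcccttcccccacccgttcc
Ldhb, chr6:142507958-142508207, minus strand: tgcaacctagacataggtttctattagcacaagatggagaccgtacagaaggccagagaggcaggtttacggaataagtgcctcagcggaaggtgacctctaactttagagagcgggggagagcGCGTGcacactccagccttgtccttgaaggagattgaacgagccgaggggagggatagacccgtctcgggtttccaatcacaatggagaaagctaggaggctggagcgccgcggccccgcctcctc
Ankrd37, chr8:45999851-46000100, minus strand: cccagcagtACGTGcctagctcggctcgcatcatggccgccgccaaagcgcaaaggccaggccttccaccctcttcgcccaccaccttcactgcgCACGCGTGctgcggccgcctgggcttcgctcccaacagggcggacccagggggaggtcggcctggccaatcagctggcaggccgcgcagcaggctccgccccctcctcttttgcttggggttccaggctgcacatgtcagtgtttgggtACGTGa
The Ldha stretch held 5 core matches, counted on both strands so that each CACGTG counts for both directions, and 1 AP2 match. The core matches lay at positions -145 to -30 relative to the start, and the AP2 match lay at -65 to -57. A second Ldha start in the table, at chr7:46846832-46847081, had 1 core match and no AP2 match. Ankrd37 had 4 core matches, Ldhb had 1, and no core match was found in the Eno2 stretch. The table held 46 such stretches for 33 of the 36 genes, and Ndrg1, Slc2a3 and Bnip3l were not among them. A core match was present in 37 of the 46 (80.4%), against 38.6% of all 32851 stretches of this length, and an AP2 match in 10 (21.7%), against 13.7%. Stretches of 1 gene can overlap, as for Aldoa and Eno1, so a site can count more than once. Counted by gene, 30 of the 33 had a core match and 9 had an AP2 match. The genes were chosen as glycolysis and hypoxia genes, so the share of core matches is no test of the list. The stretches compared were not matched for base composition. These matches describe letters, and binding was not measured.

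**Figure D1:**
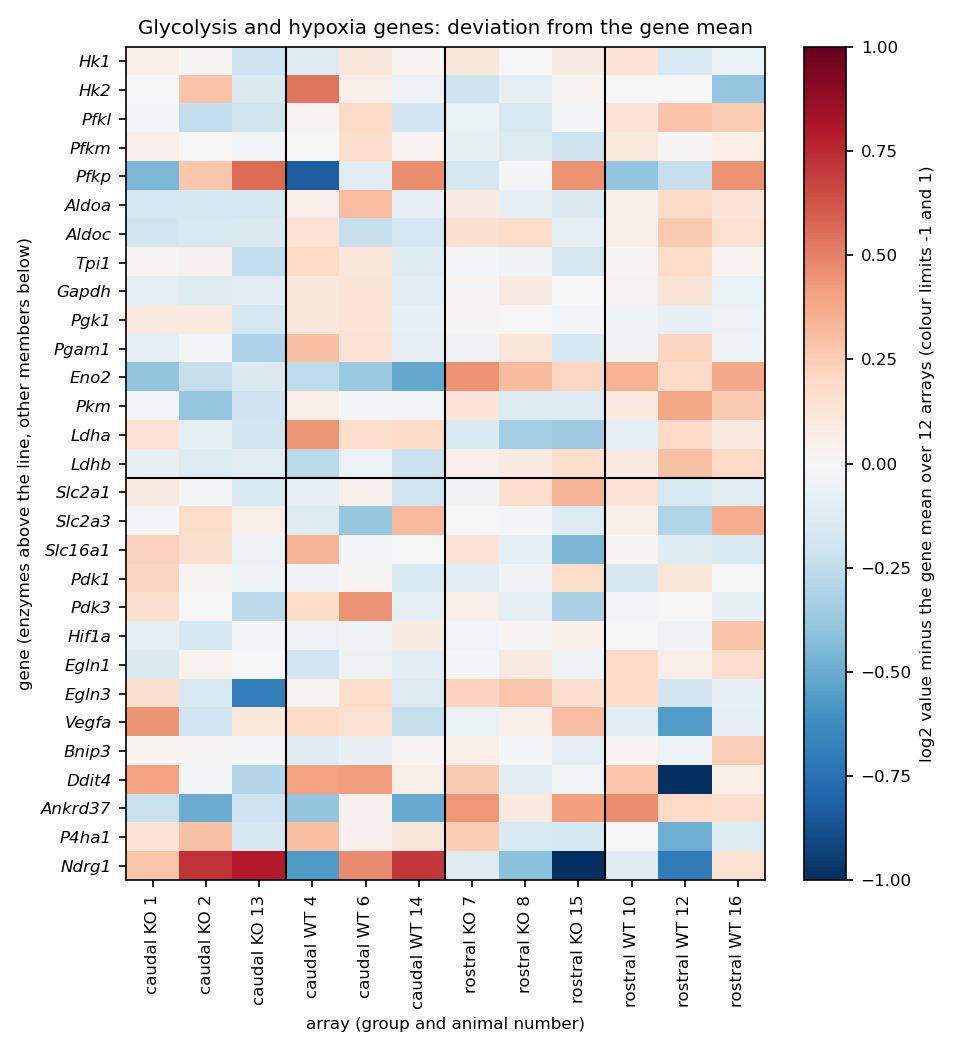
Heat map of the 29 tested genes (rows, enzymes above the line and other members below) on the 12 arrays (columns, by group and animal number); colour is the log2 value minus the mean of the gene over the 12 arrays, limited to -1 and 1. Eno2, Ldhb and Ankrd37 are below their mean on nearly all caudal arrays and above it on all rostral arrays, and Ldha is above its mean on all caudal WT arrays and below it on all rostral KO arrays.

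Comparing KO with WT cortex asks which of these genes depended on AP2gamma. No member passed the threshold in caudal cortex, in rostral cortex or averaged over both. The enzymes Ldha, Pkm and Aldoa had the smallest p-values on average, and their means were lower in KO cortex in both regions, at 79.4%, 83.7% and 85.6% of the WT level. Among all genes, 0% passed in caudal cortex, 0% in rostral cortex and 0.0339% on average (limma, 4 of 11785). At an unadjusted p under 0.05 there were 4 members of 29 in each of the 3 comparisons, against 4.06%, 6.69% and 7.53% of all genes. limma was the only tool run.

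Ldha encodes the lactate dehydrogenase subunit that favours the making of lactate from pyruvate, and it is a classical HIF-1alpha target. Its log2 values were 11.37, 11.13 and 11.02 in caudal KO 1, 2 and 13, against 11.66, 11.40 and 11.41 in caudal WT 4, 6 and 14. Rostral KO 7, 8 and 15 read 11.07, 10.88 and 10.86, against 11.13, 11.42 and 11.31 in rostral WT 10, 12 and 16. Within each region all KO arrays lay below all WT arrays, by a narrow margin between caudal KO 1 and caudal WT 6 and between rostral KO 7 and rostral WT 10. Ldha was the only member of the 29 tested whose groups did not overlap in the same direction in both regions, as did 139 genes (1.18%) in all. The difference was -0.32 ± 0.11 (SE) in caudal cortex and -0.35 ± 0.11 in rostral cortex. Averaged over regions it was -0.33 ± 0.08 (unadjusted p = 0.00078) and did not pass (limma adjusted p = 0.24; in 23 alternatives it lay between 0.09 and 0.63 and never passed). Leaving out single arrays moved it between -0.38 and -0.29. Its partner Ldhb, the subunit that favours turning lactate back into pyruvate, differed by -0.01 ± 0.05 on average.

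Pkm encodes pyruvate kinase, which makes pyruvate in the last step of glycolysis. It read 11.11, 10.75 and 10.93 in caudal KO 1, 2 and 13, against 11.21, 11.12 and 11.11 in caudal WT 4, 6 and 14. In rostral cortex it read 11.27, 11.00 and 11.01 in KO 7, 8 and 15, against 11.24, 11.53 and 11.40 in WT 10, 12 and 16. The caudal groups touched without overlapping, with caudal KO 1 and caudal WT 14 equal at 2 decimals, and in rostral cortex KO 7 lay above WT 10. The average difference was -0.26 ± 0.07 (limma adjusted p = 0.40, between 0.21 and 0.82 in 23 alternatives). The single Pkm probe set used here does not tell the splice forms of the enzyme apart.

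Aldoa encodes aldolase A, which cuts fructose 1,6-bisphosphate into the pair of three-carbon sugars. On its brightest probe set it read 10.21 in each of the 3 caudal KO arrays, against 10.45, 10.69 and 10.30 in caudal WT 4, 6 and 14. Rostral KO 7, 8 and 15 read 10.47, 10.30 and 10.24, against 10.45, 10.58 and 10.51 in rostral WT 10, 12 and 16. The caudal groups did not overlap and the rostral groups did, through KO 7. The difference was -0.27 ± 0.10 in caudal cortex, -0.18 ± 0.10 in rostral cortex and -0.22 ± 0.07 on average (limma adjusted p = 0.45). The caudal value was -0.16 ± 0.09 without caudal WT 6 and -0.36 ± 0.10 without caudal WT 14. Aldoa had 5 probe sets, and 4 of them did not overlap in caudal cortex. The dimmest of the 5 differed most, by -0.81 ± 0.19 (unadjusted p = 0.00094, limma adjusted p = 0.71 over all 21288 tested probe sets of single genes). It read 8.25, 8.42 and 8.46 in caudal KO 1, 2 and 13, against 9.36, 9.22 and 8.99 in caudal WT 4, 6 and 14, and 8.41, 8.80 and 9.10 in rostral KO 7, 8 and 15, against 8.31, 8.98 and 8.81 in rostral WT 10, 12 and 16. The names of all 5 end in x_at, which on this array type marks probes that can also match other transcripts, so their readings are uncertain to that extent.

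**Figure D2:**
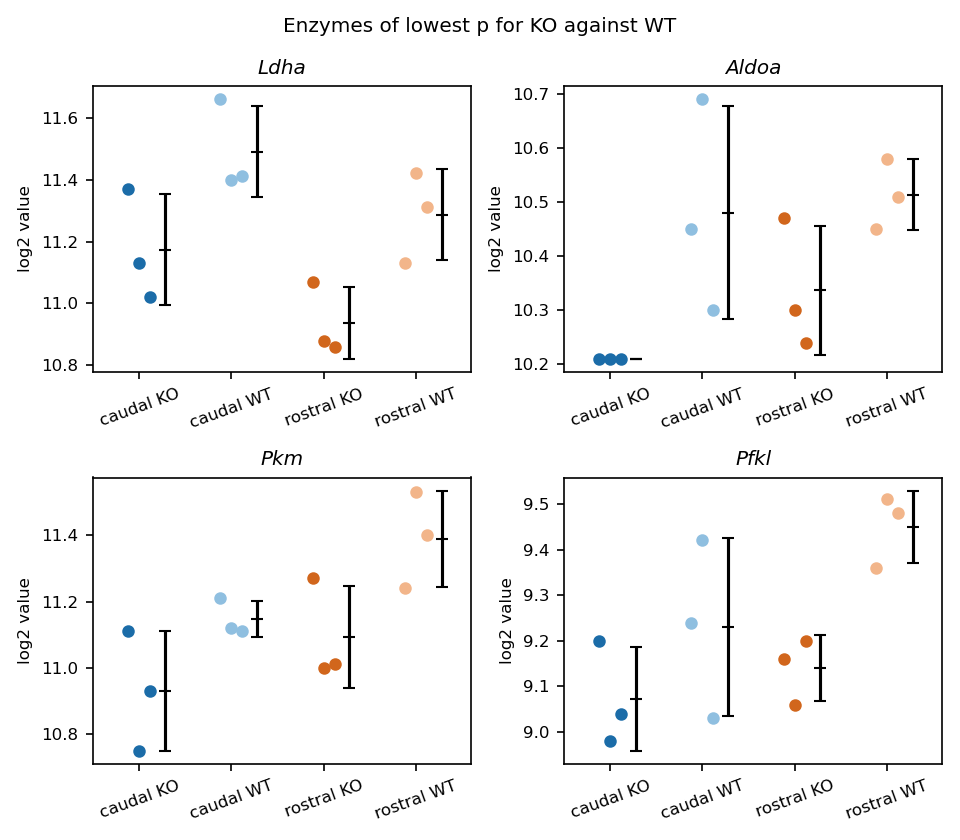
Log2 values of Ldha, Aldoa, Pkm and Pfkl (panels; vertical axes differ and do not start at 0) by group; points are single arrays, and the bar beside them is the mean ± SD of 3 arrays. The Ldha points of each KO group lie below those of the WT group of the same region, while the Pkm and Aldoa points overlap in rostral cortex and the Pfkl points in caudal cortex.

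The 3 phosphofructokinases commit sugar to glycolysis, and none passed. Pfkl, the liver-type subunit, read 9.16, 9.06 and 9.20 in rostral KO 7, 8 and 15, against 9.36, 9.51 and 9.48 in rostral WT 10, 12 and 16, with no overlap (-0.31 ± 0.11, limma adjusted p = 0.64). In caudal cortex it read 9.20, 8.98 and 9.04 in KO 1, 2 and 13, against 9.24, 9.42 and 9.03 in WT 4, 6 and 14, and WT 14 lay among the KO arrays. A second of the 3 Pfkl probe sets did not overlap in caudal cortex (-0.32 ± 0.11) and overlapped in rostral cortex, and the mean of the 3 differed by -0.05 ± 0.12 in rostral cortex. Pfkm, the muscle-type subunit, was lower in rostral KO without overlap (-0.20 ± 0.09) and differed by -0.05 ± 0.09 in caudal cortex. Pfkp, the platelet-type subunit, had differences of 0.29 ± 0.33 (caudal) and 0.15 ± 0.33 (rostral). Its spread within groups was wide, since animals 13, 14, 15 and 16 read 7.75, 7.65, 7.64 and 7.64 and were the highest of their groups, above 6.36 to 7.46 on the other 8 arrays.

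None of the remaining enzymes passed either. Pgam1, which moves the phosphate of phosphoglycerate, read 10.93, 11.00 and 10.71 in caudal KO 1, 2 and 13, against 11.32, 11.16 and 10.93 in caudal WT 4, 6 and 14. It read 10.98, 11.14 and 10.84 in rostral KO 7, 8 and 15, against 10.98, 11.23 and 10.98 in rostral WT 10, 12 and 16. The groups overlapped in both regions, and the difference was -0.26 ± 0.12 in caudal cortex (unadjusted p = 0.042, limma adjusted p = 1) and -0.08 ± 0.12 in rostral cortex. The caudal value was -0.17 ± 0.12 without caudal WT 4 and -0.37 ± 0.12 without caudal WT 14. Tpi1, the triose phosphate isomerase, was lower in rostral KO without overlap (-0.15 ± 0.10). Pgk1, which makes the first ATP of the pathway, was higher in rostral KO without overlap by only 0.05 ± 0.08, while a second Pgk1 probe set was lower without overlap (-0.17 ± 0.08), so its direction depended on the probe set. Pgk1 is X-linked. The hexokinases Hk1 and Hk2, which trap glucose in the cell, differed by 0.03 ± 0.08 and -0.05 ± 0.12 on average, and the brain-type aldolase Aldoc by -0.08 ± 0.07.

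Gapdh, the glyceraldehyde-3-phosphate dehydrogenase and a common loading standard, read 13.12, 13.09 and 13.11 in caudal KO 1, 2 and 13, against 13.33, 13.34 and 13.10 in caudal WT 4, 6 and 14. It read 13.23, 13.30 and 13.21 in rostral KO 7, 8 and 15, against 13.25, 13.34 and 13.15 in rostral WT 10, 12 and 16. The KO arrays lay close together, and caudal WT 14 lay among them. The difference was -0.15 ± 0.07 in caudal cortex (unadjusted p = 0.042, limma adjusted p = 1) and 0.00 ± 0.07 in rostral cortex. These values are from the 5′ probe set, the brightest. The 3′ probe set differed by -0.11 ± 0.06 in caudal cortex, with overlap, and was lower in rostral KO without overlap (-0.14 ± 0.06, unadjusted p = 0.032, limma adjusted p = 0.73 over all probe sets). Gapdh is also a measure of RNA integrity on these arrays, through its 3′ and 5′ probe sets. The 3′ minus 5′ value was -0.63 to -0.52 in rostral KO against -0.47 to -0.36 in rostral WT, without overlap, and -0.56 to -0.43 in caudal KO against -0.57 to -0.46 in caudal WT. Its part in the rostral differences was not tested.

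Taken by group, 12 of 15 tested enzymes were below 0 in caudal cortex, with a median of -0.12, where 50.5% of all genes were below 0 and their median was 0.00. In rostral cortex 9 of 15 were below 0, with a median of -0.08, against 55% and -0.02 for all genes. Averaged over regions 11 of 15 were below 0, with a median of -0.08, against 53.1% and -0.01. Groups did not overlap for 3 enzymes lower in caudal KO (Aldoa, Ldha and Pkm), where 3.67% of all genes were lower and 3.84% higher without overlap. In rostral KO 4 enzymes were lower without overlap (Ldha, Pfkl, Pfkm and Tpi1), against 7.5% of all genes, and 1 was higher, against 5.46%. Counting all 29 members and both directions, 3 did not overlap in caudal and 6 in rostral cortex, against 7.52% and 13% of all genes. Counted by probe set, 25 of 32 were below 0 in caudal cortex, against 50.5% of all probe sets, and 8 were lower without overlap, against 3.96%. Of these 8, 4 were of Aldoa. In rostral cortex 21 of 32 were below 0, against 53.6%, and 6 were lower without overlap, against 6.95%. Probe sets of 1 gene read the same gene and are not independent, so these counts add little to those by gene. The mean over the 15 enzymes was 10.05 to 10.12 in caudal KO against 10.11 to 10.23 in caudal WT, and 10.15 to 10.20 in rostral KO against 10.21 to 10.30 in rostral WT. Caudal KO 2 lay above caudal WT 14 on this mean. The rostral groups did not overlap, by a narrow margin between rostral KO 7 (10.20) and rostral WT 10 (10.21). The caudal median of the enzymes was -0.04 without caudal KO 13 and -0.23 without caudal WT 14.

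The 14 other tested members lay on both sides of 0, and their difference from the enzymes was not tested. Their medians were 0.03 in caudal cortex, -0.01 in rostral cortex and 0.01 on average, with 6, 7 and 6 of 14 below 0. The glucose transporters Slc2a1, of the vessel wall, and Slc2a3, of neurons, differed by 0.13 ± 0.08 and 0.02 ± 0.12 on average. A second Slc2a1 probe set was higher without overlap in caudal KO (0.23 ± 0.10, unadjusted p = 0.034). Slc16a1, a lactate and pyruvate transporter, differed by -0.02 ± 0.10. Pdk1 and Pdk3, kinases that hold pyruvate back from the mitochondria, differed by 0.08 ± 0.09 and -0.15 ± 0.11. Hif1a, which encodes HIF-1alpha itself, differed by -0.08 ± 0.06 on its brightest probe set. The other two Hif1a probe sets went opposite ways, with 0.20 ± 0.10 (unadjusted p = 0.063) and -0.28 ± 0.12 (unadjusted p = 0.041, limma adjusted p = 0.68 over all probe sets), and the last was lower in rostral KO without overlap. HIF-1alpha is regulated mainly as a protein, which arrays do not measure.

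Among the hypoxia targets, Vegfa, which draws in blood vessels, was higher in rostral KO without overlap (5.46% of all genes were higher without overlap). It read 7.21, 7.33 and 7.59 in rostral KO 7, 8 and 15, against 7.17, 6.72 and 7.18 in rostral WT 10, 12 and 16, a difference of 0.35 ± 0.20 (limma adjusted p = 0.77). Its size depended on single arrays. Without rostral KO 15 it was 0.25 ± 0.22, without rostral WT 12 it was 0.20 ± 0.21, and the mean of both Vegfa probe sets differed by -0.06 ± 0.24. The dimmer of the 2 averaged 5.39 over the 12 arrays, near the limit of 5.21, and read 4.09 in rostral KO 8, so this mean is uncertain. Vascular markers also averaged higher in rostral KO, in 9 of 9 tested genes of 10 listed (Tie1 was not tested), with a mean of 6.72 to 7.27 in rostral KO against 6.60 to 6.69 in rostral WT. Of the 9, 0 had an unadjusted p under 0.05, against 6.69% of all genes, and the smallest limma adjusted p was 0.74. The 7.27 was rostral KO 15, the array with high meningeal markers, and rostral KO 7 and 8 read 6.78 and 6.72. The part of the vascular markers in the Vegfa and Slc2a1 differences was not tested. Ddit4, which restrains mTOR under stress, read 9.10 in rostral WT 12 against 10.25 to 10.96 on the other 11 arrays and had differences of -0.26 ± 0.33 (caudal) and 0.40 ± 0.33 (rostral). Bnip3, a mitophagy receptor, P4ha1, a collagen prolyl hydroxylase subunit, and Ankrd37, an ankyrin repeat protein, differed by -0.01 ± 0.07, 0.06 ± 0.13 and 0.00 ± 0.14 on average. A second, dimmer P4ha1 probe set differed by -0.41 ± 0.25 on average and was lower in caudal KO without overlap (-0.61 ± 0.35). Ndrg1, a stress and hypoxia gene of differentiating cells, differed by 0.39 ± 0.33 in caudal cortex and by -0.36 ± 0.33 in rostral cortex on its brightest probe set. Every Ndrg1 probe set was lower in rostral KO, by -1.72 to -0.29, and only the dimmest did so without overlap. The dimmest differed there by -1.72 ± 0.68 (unadjusted p = 0.025, limma adjusted p = 0.72 over all probe sets), with rostral KO readings below 5.21. In caudal cortex it differed by -0.39 ± 0.68, while the others were above 0.

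**Figure D3:**
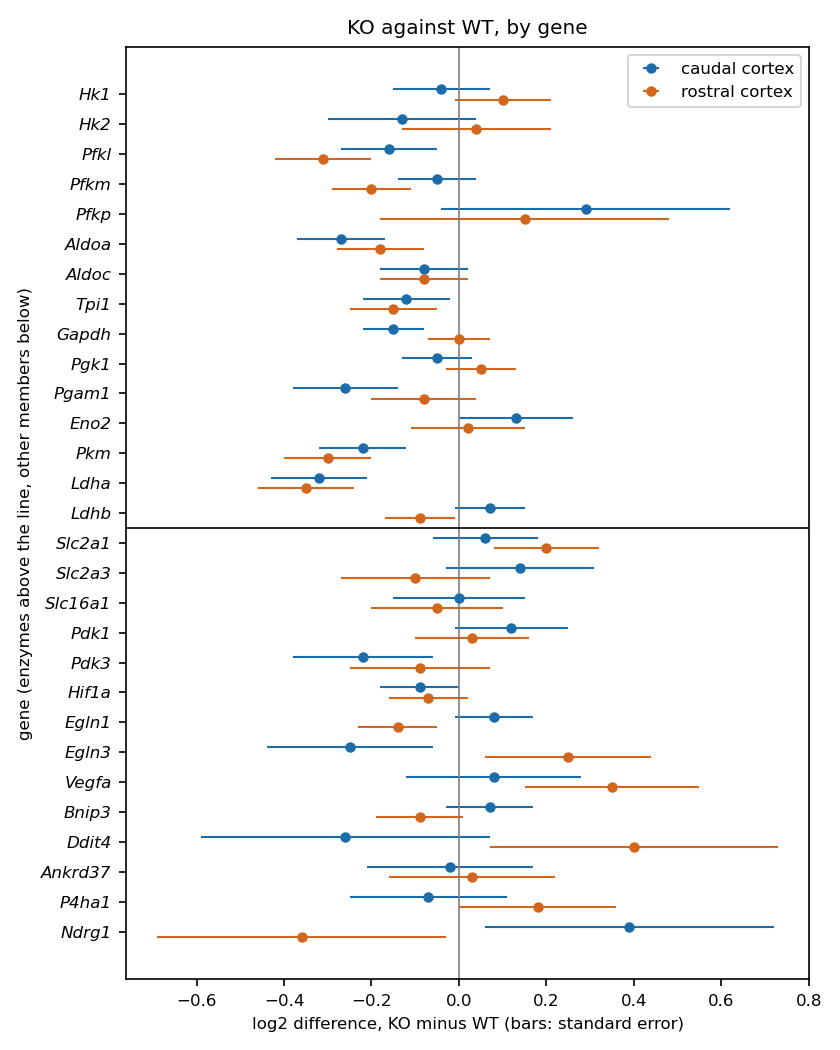
Log2 differences, KO minus WT, of the 29 tested genes (rows, enzymes above the line) in caudal cortex (blue) and rostral cortex (orange); points are limma estimates from 3 against 3 arrays and bars are standard errors. Of the 15 enzymes, 12 lie below 0 in caudal and 9 in rostral cortex, with Ldha at -0.32 and -0.35, and the other members lie on both sides of 0.

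Whether the KO effect differed between the regions was tested as caudal minus rostral. No member passed, nor did any of the 11785 genes (0%). At an unadjusted p under 0.05 there were 0 members of 29 and 3.04% of all genes. The median was 0.03 for the enzymes and -0.04 for the other members, against 0.02 for all genes. The 3 members of smallest p were Egln1, Egln3 and Gapdh, of which the first 2 encode the prolyl hydroxylases that read oxygen for HIF-1alpha. Egln3, itself a HIF target, read 7.25, 6.94 and 6.41 in caudal KO 1, 2 and 13, against 7.13, 7.28 and 6.96 in caudal WT 4, 6 and 14. It read 7.32, 7.37 and 7.26 in rostral KO 7, 8 and 15, against 7.29, 6.90 and 7.01 in rostral WT 10, 12 and 16. The groups overlapped in both regions, and the difference of effects was -0.50 ± 0.27 (limma adjusted p = 1), within -0.69 to -0.27 over the alternatives. Egln1 differed by 0.23 ± 0.12 and Gapdh by -0.15 ± 0.09 (limma adjusted p = 1 for both), while the 3′ probe set of Gapdh had a difference of effects of 0.04 ± 0.08. A second Egln1 probe set had a difference of effects of -0.11 ± 0.24. Its KO effect averaged over regions was -0.26 ± 0.12 (unadjusted p = 0.049, limma adjusted p = 0.69 over all probe sets), against -0.03 ± 0.06 on the brightest. The dimmest Aldoa probe set had a difference of effects of -0.88 ± 0.27 (unadjusted p = 0.0062, limma adjusted p = 1 over all probe sets).

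Comparing caudal with rostral cortex asks how these genes are laid out along the cortex, within each genotype. In WT cortex 2 members passed, Eno2 and Ldhb, and both fell to lower levels in caudal cortex, at 62.1% and 77% of the rostral level. Among all genes 0.942% passed, 0.687% lower and 0.255% higher in caudal cortex. In KO cortex 0 of 29 members passed, against 0.95% of all genes (0.73% lower and 0.221% higher), and Eno2 and Ldhb had differences of -0.58 and -0.22. At an unadjusted p under 0.05 there were 6 members in WT and 7 in KO cortex, against 10.4% and 13.2% of all genes (limma).

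Eno2 encodes the neuronal enolase, a marker of maturing neurons. It read 6.91, 7.07 and 7.16 in caudal KO 1, 2 and 13, against 7.75, 7.62 and 7.51 in rostral KO 7, 8 and 15. In WT it read 7.05, 6.93 and 6.79 in caudal animals 4, 6 and 14, against 7.65, 7.49 and 7.68 in rostral animals 10, 12 and 16. All 6 caudal arrays lay below all 6 rostral arrays. The difference was -0.69 ± 0.13 in WT (limma adjusted p = 0.027; 15 of 24 alternatives passed, with values between 0.015 and 0.12) and -0.58 ± 0.13 in KO (adjusted p = 0.055; 2 of 24 alternatives passed, with values between 0.03 and 0.20). The WT call was lost without any one of caudal WT 6 (adjusted p = 0.056), caudal WT 14 (0.086), rostral WT 10 (0.12), rostral WT 12 (0.060) and rostral WT 16 (0.099). The means of 6 tested neuron markers did not separate the regions, with 11.45 to 11.57 in caudal KO against 11.44 to 11.52 in rostral KO, and 11.38 to 11.62 in caudal WT against 11.39 to 11.58 in rostral WT. Single markers went different ways without overlap. In caudal WT 2 of the 6 were higher and 0 lower, against 4.96% and 8.99% of all genes. In caudal KO 0 were higher and 2 lower, against 8.78% and 12.1%. The part of neuron content in the Eno2 difference was not tested.

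Ldhb read 10.97, 10.93 and 10.96 in caudal KO 1, 2 and 13, against 11.12, 11.15 and 11.24 in rostral KO 7, 8 and 15. In WT it read 10.80, 11.01 and 10.85 in caudal animals 4, 6 and 14, against 11.16, 11.36 and 11.27 in rostral animals 10, 12 and 16. The regions did not overlap in either genotype. The difference was -0.38 ± 0.08 in WT (limma adjusted p = 0.033; 11 of 24 alternatives passed, with values between 0.0085 and 0.14) and -0.22 ± 0.08 in KO (adjusted p = 0.22). Each of the 4 Ldhb probe sets was lower in caudal WT without overlap, by -0.50 to -0.36. The name of the brightest, which gave the call, ends in x_at, so the caution given for Aldoa holds for it too. A probe set without that ending differed by -0.40 ± 0.08 in WT (limma adjusted p = 0.042 over all probe sets). Leaving out an array of the WT groups ended the call except for caudal WT 6, with adjusted p = 0.10 without caudal WT 4, 0.10 without caudal WT 14, 0.055 without rostral WT 10, 0.13 without rostral WT 12 and 0.098 without rostral WT 16, and leaving out caudal KO 2, rostral KO 7 or rostral KO 8 ended it too (0.055, 0.051 and 0.060). Ldha leaned the other way, higher in caudal cortex by 0.21 ± 0.11 in WT (adjusted p = 0.57) and 0.24 ± 0.11 in KO (adjusted p = 0.38), and its groups overlapped. The regional differences of Eno2 and Ldhb were not shown to depend on the genotype, since they differed between KO and WT by 0.11 ± 0.18 and 0.16 ± 0.11 (limma adjusted p = 1 for both).

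**Figure D4:**
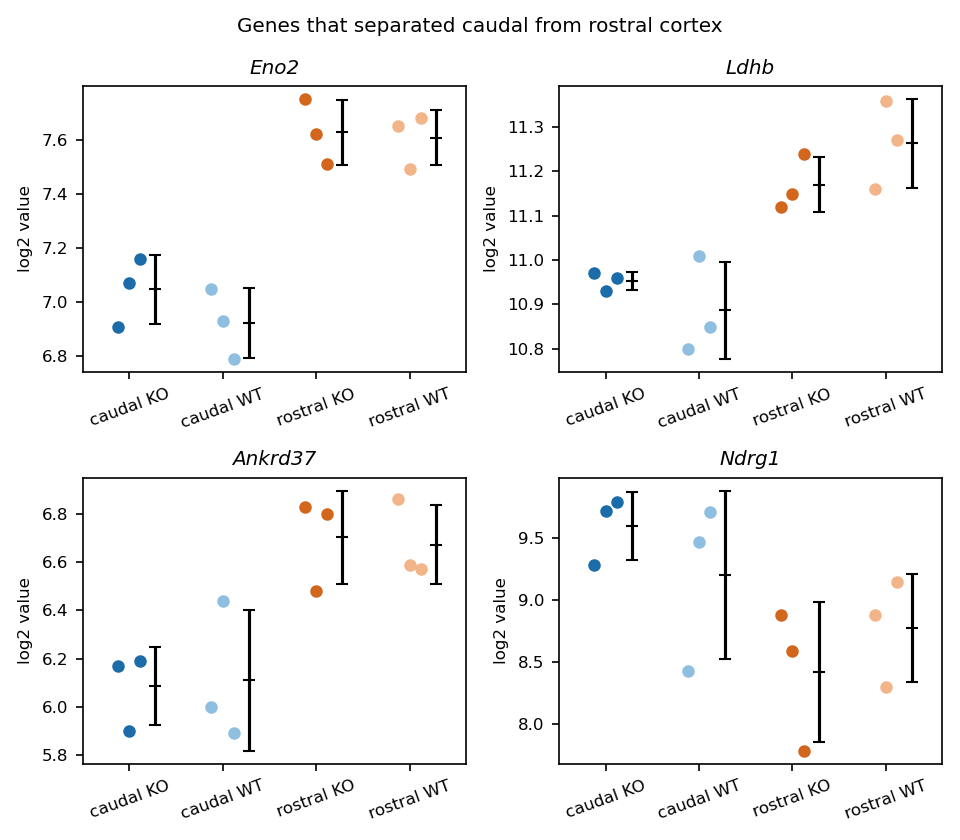
Log2 values of Eno2, Ldhb, Ankrd37 and Ndrg1 (panels; vertical axes differ and do not start at 0) by group; points are single arrays, and the bar beside them is the mean ± SD of 3 arrays. All caudal arrays of Eno2, Ldhb and Ankrd37 lie below all rostral arrays, and Ndrg1 is higher in all caudal KO arrays than in all rostral KO arrays.

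Ankrd37, a HIF target with 4 core matches in its promoter stretch, read 6.17, 5.90 and 6.19 in caudal KO 1, 2 and 13, against 6.83, 6.48 and 6.80 in rostral KO 7, 8 and 15. In WT it read 6.00, 6.44 and 5.89 in caudal animals 4, 6 and 14, against 6.86, 6.59 and 6.57 in rostral animals 10, 12 and 16. Every caudal array was below every rostral array, and the differences of -0.62 ± 0.19 in KO and -0.56 ± 0.19 in WT did not pass (limma adjusted p = 0.17 and 0.25). On the probe sets that stood for their genes, Eno2, Ldhb and Ankrd37 were the 3 members of 29 whose regions did not overlap in the same direction in both genotypes, which held for 4.79% of all genes. A second Slc2a1 probe set was also lower in caudal cortex without overlap in both genotypes. It differed by -0.30 ± 0.10 in WT and -0.13 ± 0.10 in KO (limma adjusted p = 0.29 and 0.69 over all probe sets). The brightest Slc2a1 probe set differed by -0.03 ± 0.12 in WT and -0.18 ± 0.12 in KO.

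Ndrg1 had the largest difference of the members, at 227% of the rostral level in caudal KO cortex. It read 9.28, 9.72 and 9.79 in caudal KO 1, 2 and 13, against 8.88, 8.59 and 7.79 in rostral KO 7, 8 and 15. In WT it read 8.43, 9.47 and 9.71 in caudal animals 4, 6 and 14, against 8.88, 8.30 and 9.15 in rostral animals 10, 12 and 16. The KO groups did not overlap and the WT groups did, through caudal WT 4. The difference was 1.18 ± 0.33 in KO (unadjusted p = 0.0034, limma adjusted p = 0.12, between 0.056 and 0.34 in 24 alternatives and never past the threshold) and 0.43 ± 0.33 in WT (adjusted p = 0.79). All 5 Ndrg1 probe sets were higher in caudal KO without overlap, by 0.74 to 2.17. The 2.17 came from the dimmest, and the others differed by 0.74 to 1.18. The dimmest read 3.90, 2.83 and 2.55 in rostral KO 7, 8 and 15, below the limit used for testing, so its size is uncertain. The name of the brightest ends in x_at, so the caution given for Aldoa holds for it too. On the brightest probe set the lowest array was rostral KO 15, the one with high meningeal markers. Without that array its difference was 0.86 ± 0.33 (adjusted p = 0.34). The part of these markers in the result was not tested. The KO and WT differences of Ndrg1 were 0.75 ± 0.47 apart (adjusted p = 1).

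Egln1, the main oxygen sensor, read 9.37, 9.51 and 9.45 in caudal WT 4, 6 and 14, against 9.76, 9.63 and 9.74 in rostral WT 10, 12 and 16, without overlap (-0.27 ± 0.09, limma adjusted p = 0.21), and the mean of both Egln1 probe sets differed by -0.13 ± 0.10. In KO it read 9.42, 9.60 and 9.57 in caudal animals 1, 2 and 13, against 9.55, 9.65 and 9.51 in rostral animals 7, 8 and 15, and the regions overlapped (-0.04 ± 0.09). Egln3 was lower in caudal KO without overlap (-0.45 ± 0.19) and differed by 0.05 ± 0.19 in WT. Pkm was lower in caudal WT (-0.24 ± 0.10), and Aldoa (-0.12 ± 0.10), Aldoc (-0.25 ± 0.10) and Gapdh (-0.14 ± 0.07) were lower in caudal KO, each without overlap and without passing. P4ha1 was higher in caudal WT (0.36 ± 0.18) and Pfkm in caudal KO (0.15 ± 0.09), also without overlap. Without overlap, 7 of 29 members were lower and 2 higher in caudal KO, against 12.1% and 8.78% of all genes (20.9% either way). In WT 5 were lower and 1 higher, against 8.99% and 4.96% (13.9% either way). The enzymes as a group had medians of -0.01 in WT and -0.11 in KO, and the other members had medians of 0.01 and 0.02, against -0.02 and -0.01 for all genes. The mean of the 3 tested choroid plexus markers was also lower on all caudal arrays than on the rostral arrays except in caudal WT 6, mainly through Otx2. Otx2 averaged 0.53 ± 1.05 in caudal KO against 6.70 ± 1.71 in rostral KO, and 2.78 ± 3.77 in caudal WT against 7.21 ± 0.39 in rostral WT (SD, n = 3 each). Folr1 and Clic6 averaged higher in caudal WT (5.52 and 6.37) than in rostral WT (4.37 and 5.47) and lower in caudal KO (4.11 and 5.80) than in rostral KO (4.94 and 6.00). The part of these markers in the regional differences was not tested.

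**Figure D5:**
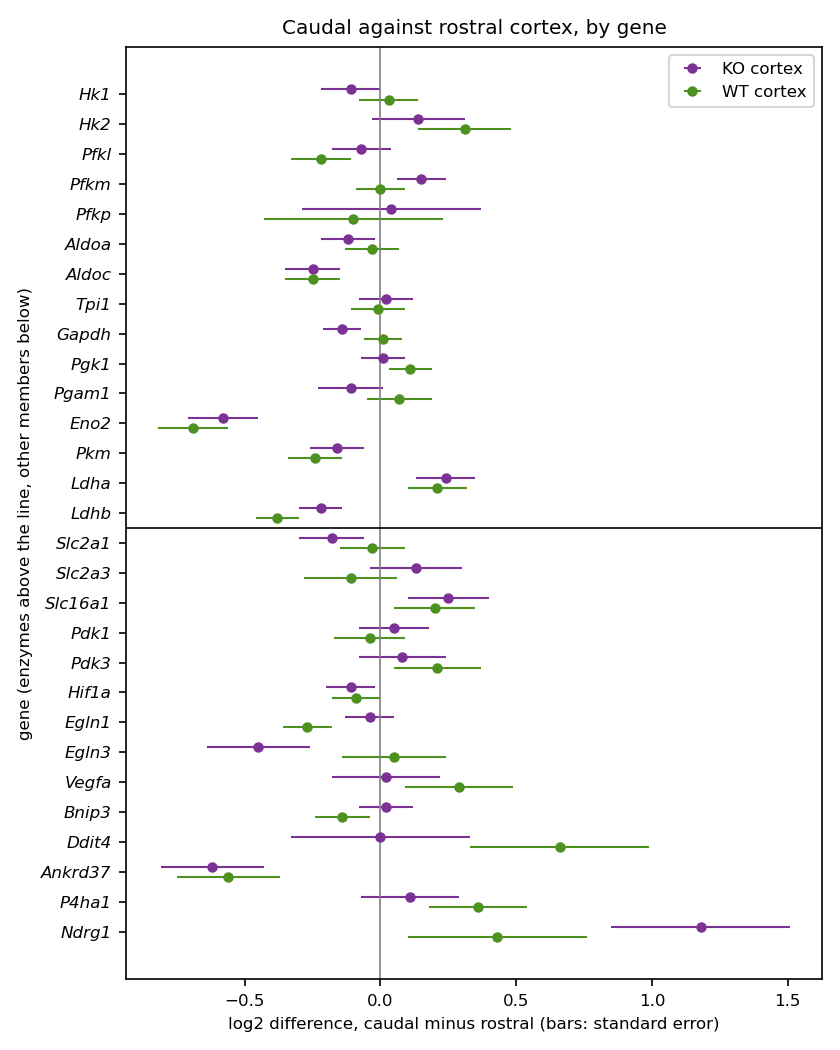
Log2 differences, caudal minus rostral, of the 29 tested genes (rows, enzymes above the line) in KO cortex (purple) and WT cortex (green); points are limma estimates from 3 against 3 arrays and bars are standard errors. Eno2, Ldhb and Ankrd37 lie below 0 in both genotypes, Ndrg1 lies farthest above 0 in KO at 1.18, and most others lie within 0.5 of 0.

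Other genes of the same pathways were taken from lists chosen with earlier results of these data known, so they are not independent support. None of the 69 tested members of these lists passed for KO against WT in either region or on average. Of 26 tested further hypoxia targets, 16 were below 0 on average, with a median of -0.04, and the 2 of smallest p were Mif, a cytokine (-0.21 ± 0.06, unadjusted p = 0.0031, limma adjusted p = 0.40), and Ak4, a mitochondrial adenylate kinase (-0.53 ± 0.18, adjusted p = 0.53). All 6 tested enzymes of the pentose phosphate pathway, the branch of glucose use that makes ribose and NADPH, were below 0 on average, within -0.19 to -0.01, and none passed. Of 18 tested genes of pyruvate oxidation and the citric acid cycle, 11 were below 0 with a median of -0.03, and of 10 genes of HIF signalling 3 were below 0 with a median of 0.08. Among 9 tested isoforms and regulators of glycolysis, 5 were below 0 with a median of -0.01.

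Between regions, 2 of these 69 genes passed, 1 in KO and 1 in WT cortex, against 0.95% and 0.942% of all genes, so their share was near that of all genes. Selenbp1, a selenium-binding protein, fell in caudal WT cortex by 1.15 ± 0.20 on the log2 scale (limma adjusted p = 0.019; 16 of 23 alternatives passed) and differed by -0.55 ± 0.20 in KO (adjusted p = 0.25). Pgm1, a phosphoglucomutase that links glycogen to glycolysis, fell in caudal KO cortex by 1.08 ± 0.18 (adjusted p = 0.015; 20 of 24 alternatives passed) and differed by -0.73 ± 0.18 in WT (adjusted p = 0.077). Neither difference was shown to depend on the genotype (0.60 ± 0.29 for Selenbp1 and -0.35 ± 0.25 for Pgm1, adjusted p = 1 for both). The Selenbp1 call was lost without any one of caudal WT 14 (adjusted p = 0.063), rostral WT 10 (0.10), rostral WT 12 (0.085) and rostral WT 16 (0.05 after rounding), and the Pgm1 call without any one of caudal KO 2 (0.052), caudal KO 13 (0.051), rostral KO 8 (0.094) and rostral KO 15 (0.071).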

How the data were processed

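Transcripts were measured on 12 one-colour oligonucleotide arrays, 3 per group, from 400 ng of amplified, biotin-labelled total RNA. The authors deposited 1 table of log2 values, already normalised between arrays to judge from their equal quartiles; the background correction and the summary method are not given in the sources used here. Probe sets were named by the platform annotation, of which 34958 named 1 gene, 932 several genes (not used) and 9211 none. All 12 arrays entered 1 limma 3.58.1 fit in R 4.3.3 with 4 group means and eBayes moderation along the mean signal (residual degrees of freedom 8, prior 5.37), on 11785 of 18194 genes, with Benjamini-Hochberg adjusted two-sided p-values. The number of arrays limits the precision. The fit was tested on simulated data.

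The members and lists were chosen with earlier results of these data known, and none of them counts as independent support. Arrays were grouped by region and genotype from the titles, and each carries a separate animal number. Values on all arrays are given for members that passed, that did not overlap in both regions or genotypes, or that had the 3 smallest p-values of a comparison, and Vegfa, Pfkp, Ddit4 and the dimmest Aldoa probe set were added after their values were seen. Related genes are named when they passed or had the 2 smallest p-values. Planned protein identities were not computed, as no protein sequences were used here. Alternatives were quantile normalisation, other filters and probe set rules, low values raised to the median, no trend, robust moderation, only the groups compared, animals 13 to 16 as a block, and arrays left out; leaving out rostral KO 15 with caudal WT 6 was added after seeing the data.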

Additional observations from a re-analysis of the deposited data

How the results depend on the processing

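No member passed for KO against WT, nor for the difference of effects, under any alternative run. The recomputed differences of the 3 members of smallest p per comparison and of the called genes kept their direction. They were read on the brightest probe set or the mean of the probe sets. Dimmer probe sets of these members could differ in sign: Pfkl had 0.30 ± 0.29 in rostral cortex (-0.31). For the difference of effects, Egln1 had -0.11 ± 0.24 (0.23) and Gapdh had 0.04 ± 0.08 (-0.15). Other members did not all keep their direction. Vegfa in rostral cortex differed by -0.06 with the mean of its probe sets (0.35), of which the dimmer lay near the limit used for testing. Pgk1 there differed by -0.17 on a second probe set (0.05). Counts over all genes moved. With low values raised to the median, 4 genes passed in rostral and 2 on average, where 0 and 4 did; without the intensity trend 2 passed on average, 69 between regions in WT and 56 in KO, where 4, 111 and 112 did. With only the groups compared, 61 passed in WT and 72 in KO. With animals 13 to 16 as a block, 4 passed in caudal cortex, 20 on average, 1 for the difference, 257 in WT and 342 in KO. Without animals 6 and 12, 1 passed on average and 23 in WT; without rostral KO 15 and caudal WT 6, 1 passed on average and 42 in KO.

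Of the 2 members called between regions in WT, 0 passed without the filter, with only the groups compared and without animals 6 and 12, and 1 passed without the trend and without rostral KO 15 and caudal WT 6. In KO, 1 (Eno2) passed with the block. The median of the other members was -0.09 in rostral cortex and 0.06 for the difference under the stricter filter (-0.01 and -0.04), and 0.11 with every probe set and 0.14 with the mean of probe sets between regions in WT (0.01). The enzyme median there was -0.09 without animals 6 and 12 (-0.01). The causes were not tested.

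Leaving out single arrays gave 0 to 1 genes in caudal and in rostral cortex, 1 to 4 on average, 27 to 134 between regions in WT and 20 to 145 in KO, with 0 to 2 members in WT and 0 to 1 in KO. Over these arrays the enzyme median in caudal cortex lay between -0.23 and -0.04, that of the other members between -0.06 and 0.07, and in WT between regions that of the other members lay between 0.00 and 0.11. No paired analysis was possible because no animal number is shared between groups. Readings near or below 5.21 (Adm, Car9, P4ha2, Slc16a3) limit what can be said of these genes.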

Other observations

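Animals 13 to 16 were 1 in each group. Of 29 tested members, Pfkp and Hif1a were highest in these animals within all 4 groups, as were 748 of all genes (6.35%), and Tpi1 and Pdk3 were lowest in them, as were 1227 (10.4%), so the members' shares were near or below those of all genes. These counts used the brightest probe set of each gene, and other probe sets did not all go the same way. On its brightest probe set Hif1a read 10.99 in caudal KO 13, 11.10 in caudal WT 14, 11.06 in rostral KO 15 and 11.29 in rostral WT 16, against 10.83 to 11.02 in the other 8 animals. A second Hif1a probe set read 8.54, 8.32, 8.71 and 8.59 in animals 13, 14, 15 and 16. There these animals were the lowest of their groups, with animal 16 level with rostral WT 10 at 2 decimals. Tpi1 read 11.15, 11.26, 11.23 and 11.42 in animals 13, 14, 15 and 16. This count was made after the values were seen, and the labels used here do not say what the numbers share.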
